A study of Arabidopsis thaliana with 18 samples.

Results

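The ROPs are small GTPases of plants that act as signalling switches at the plasma membrane. The 10 genes described here are ROP2 to ROP11 of *Arabidopsis thaliana*, taken by their gene identifiers from a table of 35197 rows: ROP2 (AT1G20090), ROP3 (AT2G17800), ROP4 (AT1G75840), ROP5 (AT4G35950), ROP6 (AT4G35020), ROP7 (AT5G45970), ROP8 (AT2G44690), ROP9 (AT4G28950), ROP10 (AT3G48040) and ROP11 (AT5G62880). Each identifier had 1 row, and all 10 were among the 23760 genes that reached 5 reads summed over the libraries; ROP1 was not analysed here. The table holds RNA-seq of whole roots of seedlings of the WT (Col-0) and of *lpcat*, the lpcat1/2 double mutant that lacks lysophosphatidylcholine (LPC) acyltransferases, collected 5 days after germination. Seedlings grew on half-strength MS medium alone (control), with lysoPAF at 20 µg/mL, or with the same dose of lysoPAF plus ONO, an inhibitor of phospholipase A2, at 50 µM by the sample labels (the study's text gives the same figure in µg/mL). LysoPAF is an ether analog of LPC. Each genotype on each medium has 3 libraries, 18 in all, and nothing in the labels says that replicates came from separate plates, so the p-values measure the spread between these libraries, which may be technical. The data allow a comparison of *lpcat* with the WT on each medium, and of each medium with the one that lacks its last addition.

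A ROP is a switch that cycles between a GTP-bound active form and a GDP-bound inactive form at the plasma membrane. RopGEFs and SPIKE1 load GTP, RopGAPs speed its hydrolysis, dissociation inhibitors (GDIs) remove the protein from the membrane, and effectors of the RIC and ICR/RIP families pass the signal to actin, microtubules and secretion. In roots ROPs are best known for placing and extending root hairs, for auxin and abscisic acid (ABA) responses and for the pits in xylem cell walls. Transcript counts show the supply of each switch and not how much of it is active.

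The family falls into 2 types by the end of the protein, which decides the lipid that holds it in the membrane. Type I ROPs (ROP2 to ROP8) end in a motif that receives a prenyl group, after a run rich in basic residues, and type II ROPs (ROP9 to ROP11) lack that motif and are held by S-acylation. Type I genes have 7 coding exons in the RefSeq annotation of TAIR10.1 and type II genes have 8. The last 60 coding bases of 3 members of each type are shown because the coding sequence separates the types there. Capitals mark the final 15 bases, which are 4 codons and the stop codon.
ROP2: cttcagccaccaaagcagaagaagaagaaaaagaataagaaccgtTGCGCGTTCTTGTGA
ROP4: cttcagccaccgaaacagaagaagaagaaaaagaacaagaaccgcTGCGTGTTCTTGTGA
ROP6: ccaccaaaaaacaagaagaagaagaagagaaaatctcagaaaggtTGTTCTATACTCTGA
ROP9: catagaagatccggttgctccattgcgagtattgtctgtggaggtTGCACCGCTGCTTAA
ROP10: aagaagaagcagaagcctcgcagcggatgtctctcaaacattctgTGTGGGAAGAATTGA
ROP11: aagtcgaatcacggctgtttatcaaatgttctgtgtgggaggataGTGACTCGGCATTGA
These lie in TAIR10.1 on the plus strand at chr1:6968544-6968603 (ROP2), chr1:28477318-28477377 (ROP4), chr4:16674481-16674540 (ROP6), chr4:14279548-14279705 (ROP9), chr3:17733041-17733241 (ROP10) and chr5:25238790-25238939 (ROP11). The type I ends are within the last coding exon, and the type II ends cross an intron. In 7 of 7 type I genes the capitals begin with TGC or TGT and the last codon before the stop is TTG, TTA or CTN; in type II genes this held for 2 of 3 and 0 of 3. Bases a and g made up 60% to 77.8% of the lower-case stretch in type I genes and 51.1% to 57.8% in type II genes.

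Counting is only safe if the copies can be told apart. Over the 45 pairs of members, identity of the coding sequences ran from 61.6% to 90.4%, with ROP3 and ROP5 (90.4%), ROP2 and ROP4 (90.0%) and ROP10 and ROP11 (84.9%) as the closest. The longest exact run that any pair shares is 40 bases, in ROP2 and ROP5, shown as the stretch where a read is hardest to place:
ROP2 and ROP5: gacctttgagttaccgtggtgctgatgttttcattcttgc
Of the 45 pairs, 0 share a run of 50 bases or more, which is shorter than the study's paired reads. Overlap on the other strand is a second limit. ROP4 shares 35 bases with AT1G75850, which held 643 to 859 normalized counts, and ROP5 shares 272 bases with AT4G35940, which held 119 to 176. The strand setting of the counting is not given in the sources used here and the library kit does not mark strand. Reads in the overlap may therefore have been counted for the wrong gene or left uncounted. The ROP5 count, and to a lesser degree the ROP4 count, may be too high or too low for this reason.

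Libraries held 8681898 to 16767002 reads in genes. LPCAT1, a gene disrupted in *lpcat*, lay between 247 and 342 normalized counts in the 9 WT libraries and between 47.3 and 72.1 in the 9 *lpcat* libraries. LPCAT2, disrupted as well, had more counts in *lpcat*, at 435 to 774 against 186 to 234; a count per gene does not say whether the transcript is intact. The library *lpcat* control replicate 2 stood apart, at 32.5 on the first principal component (30.7% of variance) against -31.2 and -34.4 for the other 2 of its group and 30.9 to 37.6 for *lpcat* on lysoPAF. Values without it are given where that changes the call of a ROP, and for some differences that did not pass. Other differences of ROPs moved as well, and not all of these are printed. Without it more genes passed throughout: 7.06%, 17.0% and 8.69% of tested genes for *lpcat* against the WT on control medium, on lysoPAF and with ONO, 6.84% and 18.7% for lysoPAF in the WT and in *lpcat*, 10.5% and 11.8% for ONO in the WT and in *lpcat*, and 9.49% and 4.96% for the interactions with lysoPAF and with ONO. Root hair and xylem marker genes were detected in every library, and the sum of 4 pollen markers did not pass 5.26 normalized counts. The sum of 5 green tissue markers varied within groups, from 907 to 2976 in the WT and from 328 to 2976 in *lpcat* on control medium. Its part in the ROP values was not tested. In whole roots, fewer cells of a type and less RNA per cell cannot be told apart.

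ROP4 was the most abundant ROP transcript in every library. Per kb of exon its level was 590 ± 53.8 normalized counts (mean ± SD over 18 libraries), followed by ROP2 at 339 ± 42.6, ROP11 at 195 ± 29.6, ROP6 at 144 ± 16.6, ROP3 at 127 ± 12.6, ROP5 at 112 ± 11.7, ROP10 at 88.8 ± 14.1, ROP7 at 52.0 ± 12.8, ROP8 at 31.7 ± 9.03 and ROP9 at 31.2 ± 7.24. ROP4 and ROP2, which act together at the root hair tip, thus held the top ranks, and ROP4 exceeded ROP2 in 18 of 18 libraries, as ROP2 did ROP11, ROP10 did ROP7 and ROP7 did ROP8. ROP11 exceeded ROP6 in 16 of 18 and ROP5 exceeded ROP10 in 16 of 18. ROP6 exceeded ROP3 in 13 of 18, ROP3 exceeded ROP5 in 15 of 18 and ROP8 exceeded ROP9 in 12 of 18; the means of ROP8 and ROP9 differed by less than either SD. Of the summed normalized counts of the 10 genes, ROP4 took 29.97% to 40.3% and ROP2 17.2% to 24.6% in a library, while ROP7, ROP8 and ROP9 took at most 3.32%, 2.00% and 2.32%. The summed count ran from 2146 ± 105 on lysoPAF with ONO in the WT to 2408 ± 4.24 on lysoPAF in *lpcat* (SD, n = 3). With ONO it was lower than on lysoPAF alone without overlap, at 2052 to 2259 against 2353 to 2420 in the WT. In *lpcat* it was at 2119 to 2336 against 2404 to 2411. The sum rests largely on ROP4 and ROP2 and was not tested.

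**Figure D1:**
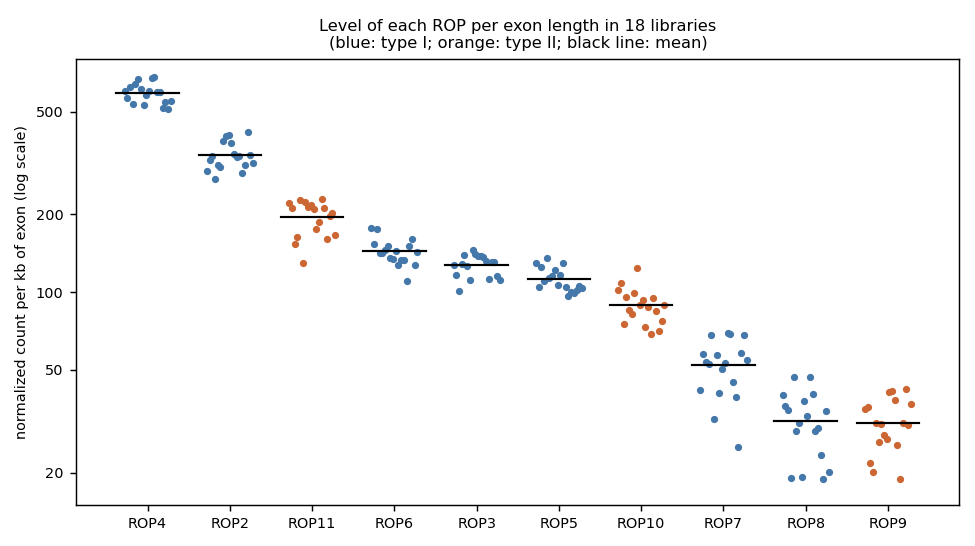
Normalized count per kb of exon (log axis) of each ROP in the 18 libraries, ordered by mean; points are libraries, blue for type I and orange for type II, and black lines are means. ROP4 (mean 590) and ROP2 (339) lie above all other members, and ROP8 (31.7) and ROP9 (31.2) share the lowest place.

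The spread between replicates set what could be seen. The residual SD on the log2 scale was 0.11 for ROP4, 0.12 for ROP2 and 0.12 for ROP5, and 0.33 for ROP7, 0.40 for ROP8 and 0.27 for ROP9, against a median of 0.208 over all tested genes. ROP8 had 19 to 52 reads in a library, ROP9 23 to 89 and ROP7 23 to 100, and counting error alone gives these 3 genes an SD of 0.26, 0.23 and 0.20. ROP4 had 600 to 1193 reads.

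Taken over all comparisons of groups, ROPs passed no more often than tested genes in general. Whether they passed less often was not tested, and the comparisons share groups. Each member was tested in 9 comparisons with limma, p adjusted over all tested genes by the method of Benjamini and Hochberg. In the 7 comparisons of groups, 1 of 70 member tests passed an adjusted p of 0.05 (1.43%), where on average 4.97% of tested genes passed. Without *lpcat* control replicate 2, 5 of 70 passed, beside an average of 11.5% of tested genes. At an unadjusted p under 0.05, 10 of 70 passed (14.3%, against a mean of 19.1% of tested genes), and in 14 of 70 the groups did not overlap (20.0%, against a mean of 24.3%). By comparison, the members with an unadjusted p under 0.05 were 1 of 10 for *lpcat* against the WT on control medium, 0 on lysoPAF and 2 with ONO, 2 for lysoPAF in the WT and 2 in *lpcat*, and 1 for ONO in the WT and 2 in *lpcat*. The share of tested genes is given here only as the mean over these 7, so the single counts are not compared with it. For the interactions of genotype with lysoPAF and with ONO, 1 and 2 of 10 members had such a p, against 11.5% and 14.1% of tested genes. On the recovered reads edgeR called 1 member in all, ROP2 for ONO in the WT, and DESeq2 called ROP2 there and for lysoPAF in the WT, and ROP4 for ONO in *lpcat*. For ONO in the WT edgeR called 825 of 23760 genes higher and 448 lower, and DESeq2 1021 and 481 of 23750. DESeq2 called 572 and 319 for lysoPAF in the WT and 996 and 823 for ONO in *lpcat*. No difference reached 2-fold: the lowest was 0.602-fold (ROP8) and the highest 1.67-fold (ROP7). For ROP2, ROP3, ROP4, ROP5, ROP6 and ROP11 the 95% interval of all 7 fold changes lay within 1.5-fold in either direction, and for ROP10 in 5 of 7. For ROP7 it did so in 2 of 7, for ROP8 in 0 of 7 and for ROP9 in 1 of 7, so that a difference of 1.5-fold lies within most intervals of these weakly expressed genes. An F-test over the 6 groups was passed by ROP2 (adjusted p = 0.0188 by limma) and by no other member, and by 27.1% of tested genes.

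**Figure D2:**
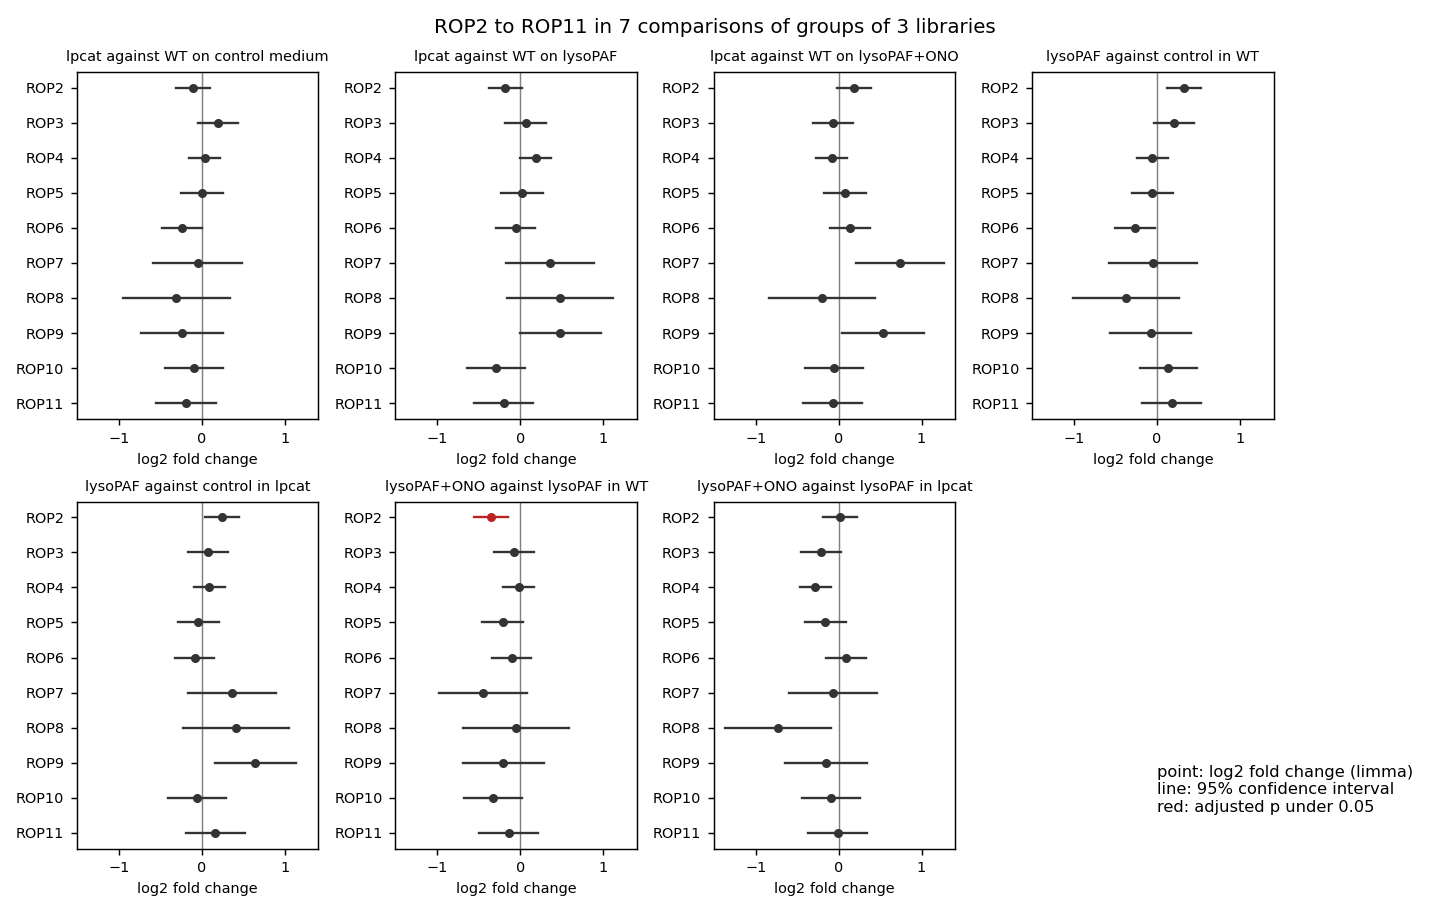
Log2 fold change of each ROP with its 95% confidence interval in the 7 comparisons of groups, from limma; red marks an adjusted p under 0.05. ROP2 in lysoPAF+ONO against lysoPAF in the WT (-0.35) is the only red point, and the intervals of ROP7, ROP8 and ROP9 are the widest.

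ROP2, which sets the site and the tip growth of root hairs, was the 1 member called in any comparison. Its normalized counts in the WT were 405, 446 and 461 on control medium, 530, 555 and 556 on lysoPAF, and 462, 398 and 427 on lysoPAF with ONO. All 3 libraries on lysoPAF were above all 6 of the other WT libraries. With ONO added to lysoPAF, ROP2 fell in the WT from 547 ± 14.7 to 429 ± 32.0 (SD, n = 3), a fold of 0.784 (log2 fold change -0.35, standard error 0.10, 95% interval -0.55 to -0.15, limma adjusted p = 0.0378). In this comparison 5.49% of tested genes passed and 1.77% passed as lower, and ROP2 was the 1 of 10 members that did. The call held with edgeR (adjusted p = 0.0342) and DESeq2 (adjusted p = 0.0274) on the recovered reads and without *lpcat* control replicate 2 (adjusted p = 0.0161 by limma). Leaving out replicate 1, 2 or 3 of the WT on lysoPAF lost it (adjusted p by limma 0.0830, 0.106 and 0.114), as did leaving out replicate 2 or 3 of the WT on lysoPAF with ONO (0.151 and 0.0873), with the log2 fold change between -0.41 and -0.30 throughout.

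The difference of ROP2 between control medium and lysoPAF in the WT, 437 ± 28.9 against 547 ± 14.7, had a similar size in the other direction (log2 fold change 0.32, 95% interval 0.12 to 0.53) and did not pass (limma adjusted p = 0.0806). DESeq2 gave it an adjusted p of 0.0430 and limma without *lpcat* control replicate 2 one of 0.0367. Both steps share the libraries on lysoPAF, so they are not separate evidence. In this step 2.48% of tested genes passed, and 0 of 10 members did; ROP2 was the 1 member higher without overlap and ROP6 the 1 lower, as were 12.7% and 13.5% of tested genes. In *lpcat*, ROP2 was at 376, 426 and 419 on control medium and at 520, 470 and 460 on lysoPAF, again without overlap (log2 fold change 0.25, limma adjusted p = 0.168, and 0.28 with an adjusted p of 0.0641 without *lpcat* control replicate 2). With ONO the *lpcat* libraries were at 576, 467 and 433, around the level on lysoPAF (log2 fold change 0.02, 95% interval -0.19 to 0.22). The difference between the genotypes in the response to ONO was 0.37 on the log2 scale (95% interval 0.08 to 0.66) and did not pass (limma adjusted p = 0.210); 1.26% of tested genes passed that interaction. ROP2 is therefore called lower after ONO in the WT, and a difference of *lpcat* in this respect was not shown. The estimates of the other ROPs for ONO in the WT were below 0 as well. The median of the members was -0.17, beside 0 over all tested genes, and in *lpcat* -0.12 beside 0.01. ROP7 (-0.45) and ROP10 (-0.33) were not called in the WT, with residual SDs of 0.33 and 0.21 against 0.12 for ROP2. The members were not tested as a set.

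Marker genes also differed between these groups. On lysoPAF and on lysoPAF with ONO in the WT, the summed normalized counts of 12 root hair markers were 13901 to 18995 and 19365 to 21632 (2 of 12 rose and 1 fell), those of 9 xylem markers 3862 to 3889 and 4028 to 4559 (0 of 9 passed), and those of 5 root tip markers 702 to 713 and 859 to 973 (1 of 5 rose). Of 23760 tested genes, 884 passed as higher and 421 as lower in that comparison. No marker of these 3 lists was at 0 in all 3 libraries of either group. From control medium to lysoPAF in the WT, where ROP2 was the higher on lysoPAF, the root hair markers summed to 12073 to 14795 on control medium and to 13901 to 18995 on lysoPAF (3 of 12 rose), and over the 18 libraries, which share groups and depth, log2 ROP2 and their log2 sum had r = -0.07. In the step from control medium to lysoPAF in the WT, 376 of 23760 tested genes passed as higher. The part of these markers in the result was not tested.

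ROP4 and ROP6 overlap with ROP2 in root hair growth, and ROP6 also acts with RIC1 on microtubules. ROP4 in *lpcat* was at 710, 852 and 892 on control medium, 802, 902 and 905 on lysoPAF, and 726, 682 and 732 on lysoPAF with ONO. Its libraries with ONO were all below those on lysoPAF alone (870 ± 58.8 against 713 ± 27.4), with a fold of 0.822 (log2 fold change -0.28, 95% interval -0.47 to -0.10) and a limma adjusted p of 0.0676. This passed with DESeq2 (0.0366) and with limma without *lpcat* control replicate 2 (0.0325). Of the members, 0 of 10 passed in this comparison, against 6.06% of tested genes. In the WT the same step left ROP4 at 764 ± 55.9 and 756 ± 59.5 (95% interval of the log2 fold change -0.20 to 0.17), and the interaction of -0.27 did not pass (limma adjusted p = 0.346).

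ROP6 was highest in the WT on control medium, at 266, 231 and 264 normalized counts. It was at 212, 214 and 218 in *lpcat* on the same medium, below all 3 WT libraries (log2 fold change -0.24, 95% interval -0.48 to -0.00031, limma adjusted p = 0.301, and -0.23 with an adjusted p of 0.286 without *lpcat* control replicate 2). It was at 226, 204 and 201 in the WT on lysoPAF, also below (log2 fold change -0.27, limma adjusted p = 0.226). These comparisons share the WT control libraries, and neither passed. ROP6 was the 1 member that was lower without overlap in *lpcat* on control medium, as were 7.79% of tested genes, and 0 of 10 members passed there, against 2.77% of tested genes.

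ROP3 and ROP5, the closest pair by sequence, were not called in any comparison. ROP3, which takes part in auxin-dependent patterning, had group means from 167 ± 19.8 (WT control) to 201 ± 0.644 (*lpcat* lysoPAF). ROP5 had group means from 114 ± 1.71 (WT lysoPAF+ONO) to 139 ± 15.4 (*lpcat* control). In the WT, ROP5 was at 134, 141 and 123 on lysoPAF and at 112, 116 and 115 with ONO, without overlap (log2 fold change -0.21, 95% interval -0.46 to 0.04, limma adjusted p = 0.351). ROP2 and ROP5 were the 2 of 10 members lower without overlap in that comparison, as were 12.6% of tested genes. In *lpcat*, ROP3 was at 201, 201 and 200 on lysoPAF and at 191, 168 and 162 with ONO (log2 fold change -0.21, limma adjusted p = 0.324), and ROP3 and ROP4 were the 2 of 10 members lower without overlap, as were 13.0% of tested genes.

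**Figure D3:**
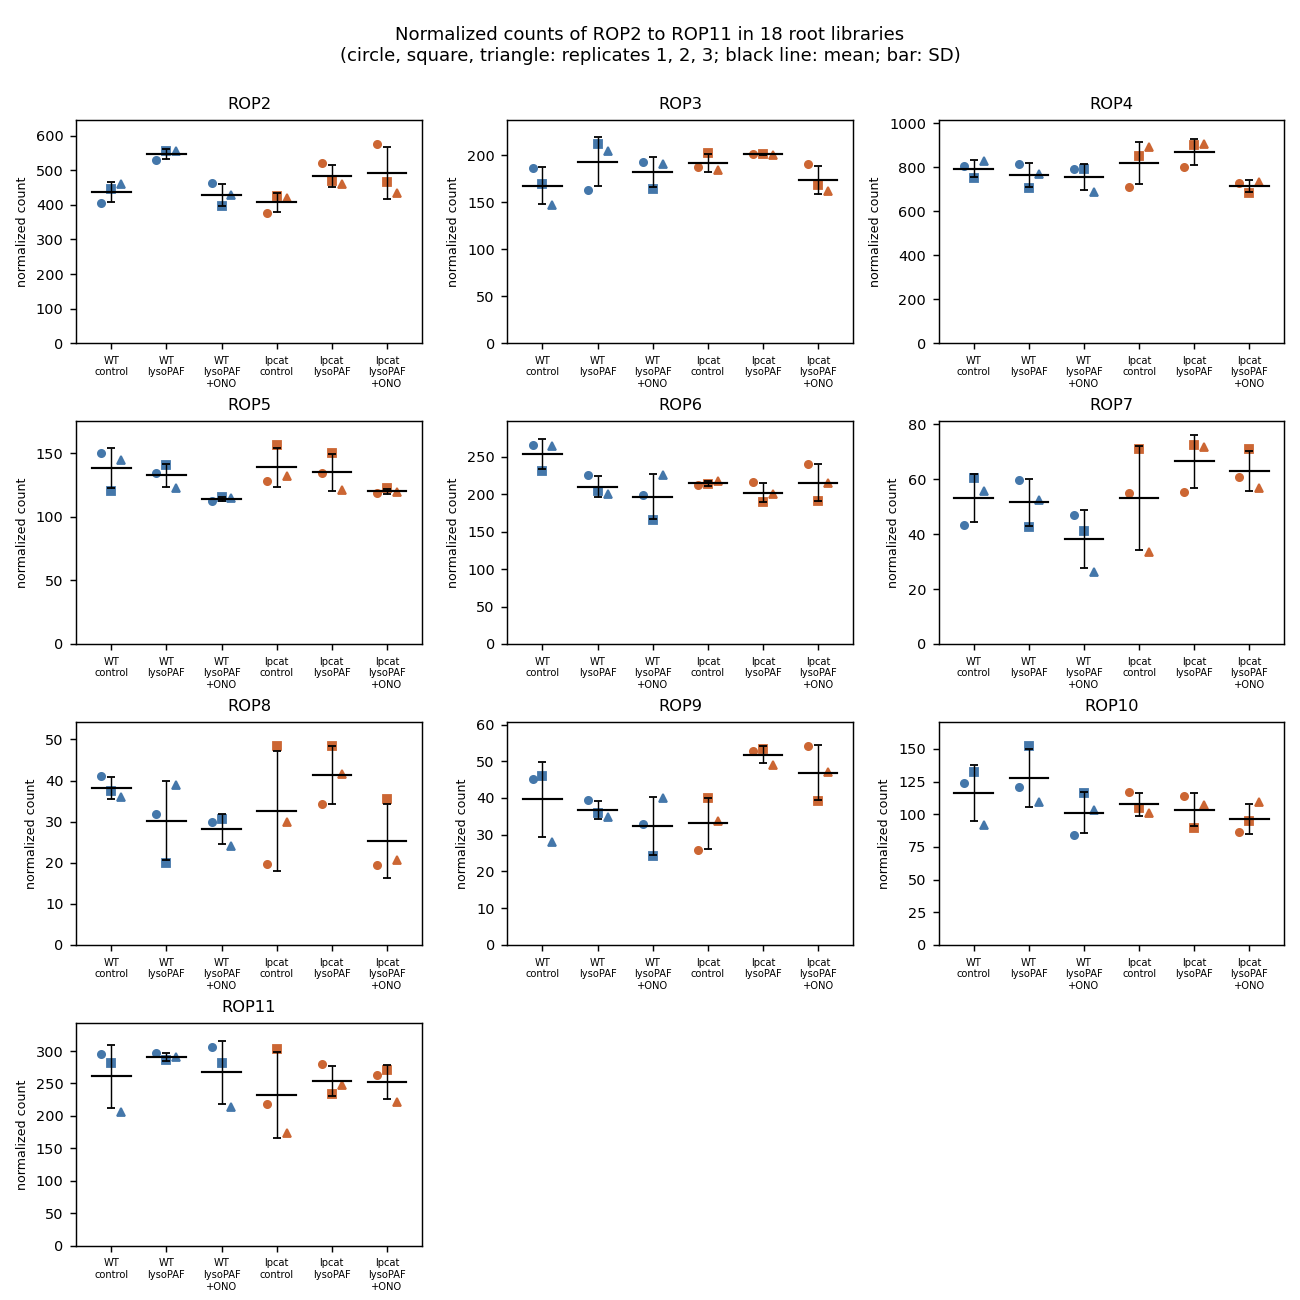
Normalized counts of the 10 ROPs in the 18 libraries, by genotype (blue WT, orange *lpcat*) and medium; points are libraries, black lines means and bars SD of 3 libraries, and each vertical axis starts at 0. ROP2 stands at 530 to 556 in the WT on lysoPAF against 398 to 462 in the other WT libraries.

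ROP7 is expressed in developing xylem. On lysoPAF with ONO it was at 46.9, 41.1 and 26.4 normalized counts in the WT and at 60.9, 71.1 and 57.0 in *lpcat*, and the groups did not overlap. The fold of 1.67 (log2 fold change 0.74, 95% interval 0.21 to 1.27) was the highest of any member and did not pass (limma adjusted p = 0.117). It passed without *lpcat* control replicate 2, a library outside this comparison (adjusted p = 0.0424). In this comparison 0 of 10 members passed, against 3.27% of tested genes, and ROP5 and ROP7 were the 2 of 10 higher without overlap, as were 12.8% of tested genes. On control medium ROP7 was at 43.5, 60.4 and 55.9 in the WT and 54.9, 71.2 and 33.6 in *lpcat*, which overlap. Without *lpcat* control replicate 2 the log2 fold change there was -0.29 (limma adjusted p = 0.563). That of lysoPAF in *lpcat* was then 0.61 (limma adjusted p = 0.104). The 9 xylem markers summed to 4028 to 4559 in the WT and 5221 to 5719 in *lpcat* on lysoPAF with ONO, 2 of 9 passed as higher and none was at 0; their part in the ROP7 values was not tested. Over the 18 libraries, which share groups and depth, the correlation of log2 ROP7 with log2 summed xylem markers was r = 0.56, and that with log2 summed root tip markers was r = -0.64. Each was the most extreme of the ROPs for its list, picked from many values. ROP5 had r = -0.56 with the root tip markers.

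ROP8 was too sparse for a narrow statement. In *lpcat* it was at 34.3, 48.3 and 41.6 on lysoPAF and at 19.5, 35.6 and 20.6 with ONO, which overlap (log2 fold change -0.73, 95% interval -1.37 to -0.09, limma adjusted p = 0.179). Its libraries of *lpcat* on control medium ran from 19.7 to 48.4, the highest being replicate 2. Without that replicate the log2 fold change of *lpcat* against the WT on control medium went from -0.31 to -0.63, and neither value passed (limma adjusted p = 0.677 and 0.226).

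Among the type II members, ROP9 varied most. It was at 25.9, 39.9 and 33.6 normalized counts in *lpcat* on control medium and at 52.7, 53.4 and 49.1 on lysoPAF, without overlap, a fold of 1.57 (log2 fold change 0.65, 95% interval 0.16 to 1.14) that did not pass (limma adjusted p = 0.134). Without *lpcat* control replicate 2 the log2 fold change was 0.79 and passed (adjusted p = 0.0325), in a comparison that 18.7% of tested genes then passed. With all libraries 0 of 10 members passed, against 3.51% of tested genes, and ROP2 and ROP9 were the 2 higher without overlap, as were 7.62% of tested genes. In the WT the same step went from 39.7 to 36.7 on average (45.1, 46.0 and 27.9 to 39.5, 35.9 and 34.7), which overlap. The interaction of genotype with lysoPAF was 0.73 on the log2 scale (95% interval 0.03 to 1.42) and did not pass (limma adjusted p = 0.412), in a contrast that 0.0547% of tested genes passed. Without *lpcat* control replicate 2 it was 0.87 (adjusted p = 0.120), and 9.49% of tested genes passed. On lysoPAF, ROP9 was higher in *lpcat* than in the WT without overlap (log2 fold change 0.49, limma adjusted p = 0.209; 0.04996 when these 6 libraries were fitted alone). Of the members, 0 of 10 passed there, against 11.2% of tested genes.

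ROP10 and ROP11 both take part in restraining ABA responses, and ROP11 also places the pits in xylem walls. ROP10 had group means from 96.7 ± 11.5 (*lpcat* lysoPAF+ONO) to 128 ± 22.2 (WT lysoPAF), and its groups overlapped in all 7 comparisons. ROP11 was at 297, 286 and 290 in the WT on lysoPAF and at 280, 234 and 248 in *lpcat*, without overlap (log2 fold change -0.20, 95% interval -0.56 to 0.16, limma adjusted p = 0.526). ROP2 and ROP11 were the 2 of 10 members lower without overlap in that comparison and ROP9 the 1 that was higher, as were 15.4% and 17.3% of tested genes. Replicates of ROP11 differed more than these groups did on other media, with 173 to 304 in *lpcat* on control medium. With all libraries its 7 log2 fold changes ran from -0.20 to 0.17. Without *lpcat* control replicate 2 that of *lpcat* against the WT on control medium was -0.40 (limma adjusted p = 0.116). That of lysoPAF in *lpcat* was then 0.38 (limma adjusted p = 0.0907). Over the 18 libraries, log2 ROP11 and the log2 sum of 5 green tissue markers had r = -0.64, and their part was not tested. This was the lowest r of any ROP with the root hair, xylem, root tip or green tissue markers, picked from many values. With the xylem markers ROP11 had r = -0.26.

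The regulators and effectors of ROPs were read from 4 lists. Beside 0 or 1 member called per comparison, a few genes on these lists passed, most of them in *lpcat* on control medium or in the WT on lysoPAF, where 2.77% and 2.48% of tested genes did. Both comparisons use the same WT control libraries. For a gene called in both, as ROPGEF4, RIP5 and ABI2 were, the calls are therefore not separate evidence. Of 15 activators, 13 were tested, and the 1 gene called was ROPGEF4, which activates ROP11 in xylem. It was at 117, 112 and 148 normalized counts in the WT on control medium and at 225, 218 and 225 in *lpcat* (log2 fold change 0.83 with a standard error of 0.13, limma adjusted p = 0.00107, where 2.24% of tested genes passed as higher). ROPGEF4 lost this call with the control libraries fitted alone (limma adjusted p = 0.159). It was called in the WT on lysoPAF too, at 176, 182 and 177 (log2 fold change 0.51, limma adjusted p = 0.0412). This was lost without WT control replicate 1 or 2 or any of the 3 lysoPAF replicates (0.112 to 0.159). The median log2 fold change of the 13 activators was -0.002 in *lpcat* on control medium, beside -0.006 over all tested genes.

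Of 11 inhibitors, 10 had a row and 9 were tested. On control medium 2 of 9 passed, against 2.77% of tested genes, and for ONO in the WT 1 of 9, against 5.49%. REN1, a RopGAP that confines ROP activity to the tip of pollen tubes, was at 402, 414 and 432 in the WT on control medium and at 523, 505 and 534 in *lpcat* (log2 fold change 0.32, limma adjusted p = 0.0276). In the WT it was at 392, 443 and 428 on lysoPAF and rose to 560, 521 and 556 with ONO (log2 fold change 0.37, limma adjusted p = 0.00589), in the comparison in which ROP2 fell. The latter call held without each of the 6 libraries in turn, and the former was lost without WT control replicate 1 or 2 or *lpcat* control replicate 1 or 3 (0.0597 to 0.103). AT1G08340, a gene on the list of inhibitors, was higher in *lpcat* on control medium, 305 ± 42.5 against 200.2 ± 11.5 (log2 fold change 0.60, limma adjusted p = 0.0104), and lost the call without WT control replicate 2 (0.0605). No other inhibitor passed in any comparison.

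Of 15 effectors, 12 were tested, and calls went both ways: 2 of 12 in *lpcat* on control medium and 2 of 12 in the WT on lysoPAF, against 2.77% and 2.48% of tested genes, and 1 of 12 for *lpcat* against the WT on lysoPAF, against 11.2%. RIP5 and RIP2, coiled-coil proteins of the ICR/RIP family that bind active ROPs, were lower in *lpcat* on control medium. RIP5 was at 342, 382 and 322 in the WT and at 297, 247 and 261 in *lpcat* (log2 fold change -0.38, limma adjusted p = 0.0314), and was also lower in the WT on lysoPAF, at 270, 269 and 273 (log2 fold change -0.36, limma adjusted p = 0.0429). RIP2 went from 861 ± 19.8 to 710 ± 18.6 (log2 fold change -0.28, limma adjusted p = 0.0437). RIC1, which acts with ROP6 on microtubules, rose in the WT on lysoPAF from 58.1 ± 7.03 to 86.0 ± 4.59 (log2 fold change 0.56, limma adjusted p = 0.0484). RIC2 was higher in *lpcat* than in the WT on lysoPAF, 180 ± 29.1 against 128 ± 21.6 (log2 fold change 0.49, limma adjusted p = 0.0478). These 5 calls were each lost without 4 to 6 of the 6 libraries compared, one at a time. Adjusted p was then 0.0528 to 0.151 and 0.0699 to 0.175 for RIP5 without WT control replicate 1 or 2 or *lpcat* control replicate 2 or 3, and without any library of the step to lysoPAF. It was 0.0539 to 0.140 for RIP2 without any library but *lpcat* control replicate 2, 0.0790 to 0.175 for RIC1 without any library, and 0.0998 to 0.218 for RIC2 without WT lysoPAF replicate 2 or 3 or *lpcat* lysoPAF replicate 2 or 3.

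The fourth list holds 11 kinases, NADPH oxidases and other proteins that work with ROPs, all tested. Of these, 3 of 11 passed in *lpcat* on control medium, 3 of 11 in the WT on lysoPAF and 3 of 11 for *lpcat* against the WT on lysoPAF, against 2.77%, 2.48% and 11.2% of tested genes. For *lpcat* against the WT with ONO and for lysoPAF in *lpcat* it was 1 of 11, against 3.27% and 3.51%. RBOHC, the NADPH oxidase of growing root hairs, was at 611, 623 and 527 in the WT on control medium and at 924, 844 and 855 in *lpcat* (log2 fold change 0.58 with a standard error of 0.09, limma adjusted p = 0.00132). RBOHD, the main oxidase of defence signalling, was higher in *lpcat* on all 3 media: 456 ± 15.4 to 595 ± 17.4 on control medium (log2 fold change 0.38, limma adjusted p = 0.0467), 496 ± 31.9 to 691 ± 13.2 on lysoPAF (0.48, 0.00467) and 556 ± 101 to 754 ± 86.0 with ONO (0.45, 0.0199). RBOHC was also higher in *lpcat* on lysoPAF (log2 fold change 0.37, limma adjusted p = 0.0130). ABI1 and ABI2, phosphatases that repress ABA signalling, rose in the WT on lysoPAF. ABI2 went from 60.9, 71.9 and 66.8 to 121, 104 and 109 (log2 fold change 0.74, limma adjusted p = 0.00782), and ABI1 from 429 ± 11.3 to 590 ± 27.8 (log2 fold change 0.46, limma adjusted p = 0.0108). ABI1 rose in *lpcat* on lysoPAF as well (0.35, adjusted p = 0.0354), and ABI2 was higher in *lpcat* on control medium (0.61, adjusted p = 0.0188). RBOHC on control medium, RBOHD on lysoPAF and ABI2 in the WT on lysoPAF kept their calls without each library in turn. With the control libraries fitted alone, RBOHC lost its call there (limma adjusted p = 0.159). SEC3A, an exocyst subunit, was higher in *lpcat* than in the WT on lysoPAF (log2 fold change 0.37, limma adjusted p = 0.0164). RBOHF, another NADPH oxidase, rose in the WT on lysoPAF (0.36, limma adjusted p = 0.0157). Like all genes named from the lists of regulators, effectors and linked proteins, both were picked by their adjusted p in these data. The other calls of this list were lost without 1 to 5 libraries. For RBOHC on lysoPAF these were replicate 1 of either genotype (limma adjusted p of 0.0619 and 0.0822). For RBOHD they were each control library but *lpcat* replicate 2 (0.0675 to 0.152), and with ONO WT replicate 1 or 2 or *lpcat* replicate 2 or 3 (0.0807 to 0.125). For ABI2 on control medium they were WT replicate 1 or 3 or *lpcat* replicate 3 (0.0519 to 0.0805). For ABI1 they were WT lysoPAF replicate 1 (0.0565), and in *lpcat* each library but control replicate 2 (0.0785 to 0.238). For SEC3A they were WT lysoPAF replicate 1 or *lpcat* lysoPAF replicate 2 or 3 (0.0632 to 0.0885), and for RBOHF WT control replicate 1 or WT lysoPAF replicate 2 or 3 (0.0654 to 0.0678).

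The same groups differed in marker genes. The 12 root hair markers summed to 12073 to 14795 in the WT and 16983 to 27576 in *lpcat* on control medium, where 9 of 12 passed as higher. In the WT on lysoPAF they summed to 13901 to 18995, where 3 of 12 did. Of tested genes, 2.24% passed as higher in *lpcat* on control medium, and 376 of 23760 in the WT on lysoPAF. The 9 xylem markers summed to 4232 to 4674 and 5080 to 6037 on control medium, where 1 of 9 passed as higher, and the 7 endodermis markers to 2967 to 3091 and 3950 to 4229, where 4 of 7 did. For *lpcat* against the WT on lysoPAF, 8 of 9 xylem markers passed as higher (sums of 3862 to 3889 and 5378 to 6430), 3 of 12 root hair markers (13901 to 18995 and 18712 to 22192) and 1 of 7 endodermis markers. In that comparison 1558 of 23760 tested genes passed as higher. No marker of these lists was at 0 in all libraries of a group, and their part in the values of ROPGEF4, RBOHC and the other called genes was not tested. Neither interaction was passed by any gene of the 4 lists or by any ROP in limma with adjusted p; at an unadjusted p under 0.05 the interaction with lysoPAF held 1 activator, 2 inhibitors, 5 effectors and 2 of the linked proteins, and that with ONO 1, 2, 1 and 3, where 11.5% and 14.1% of tested genes had such a p.

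**Figure D4:**
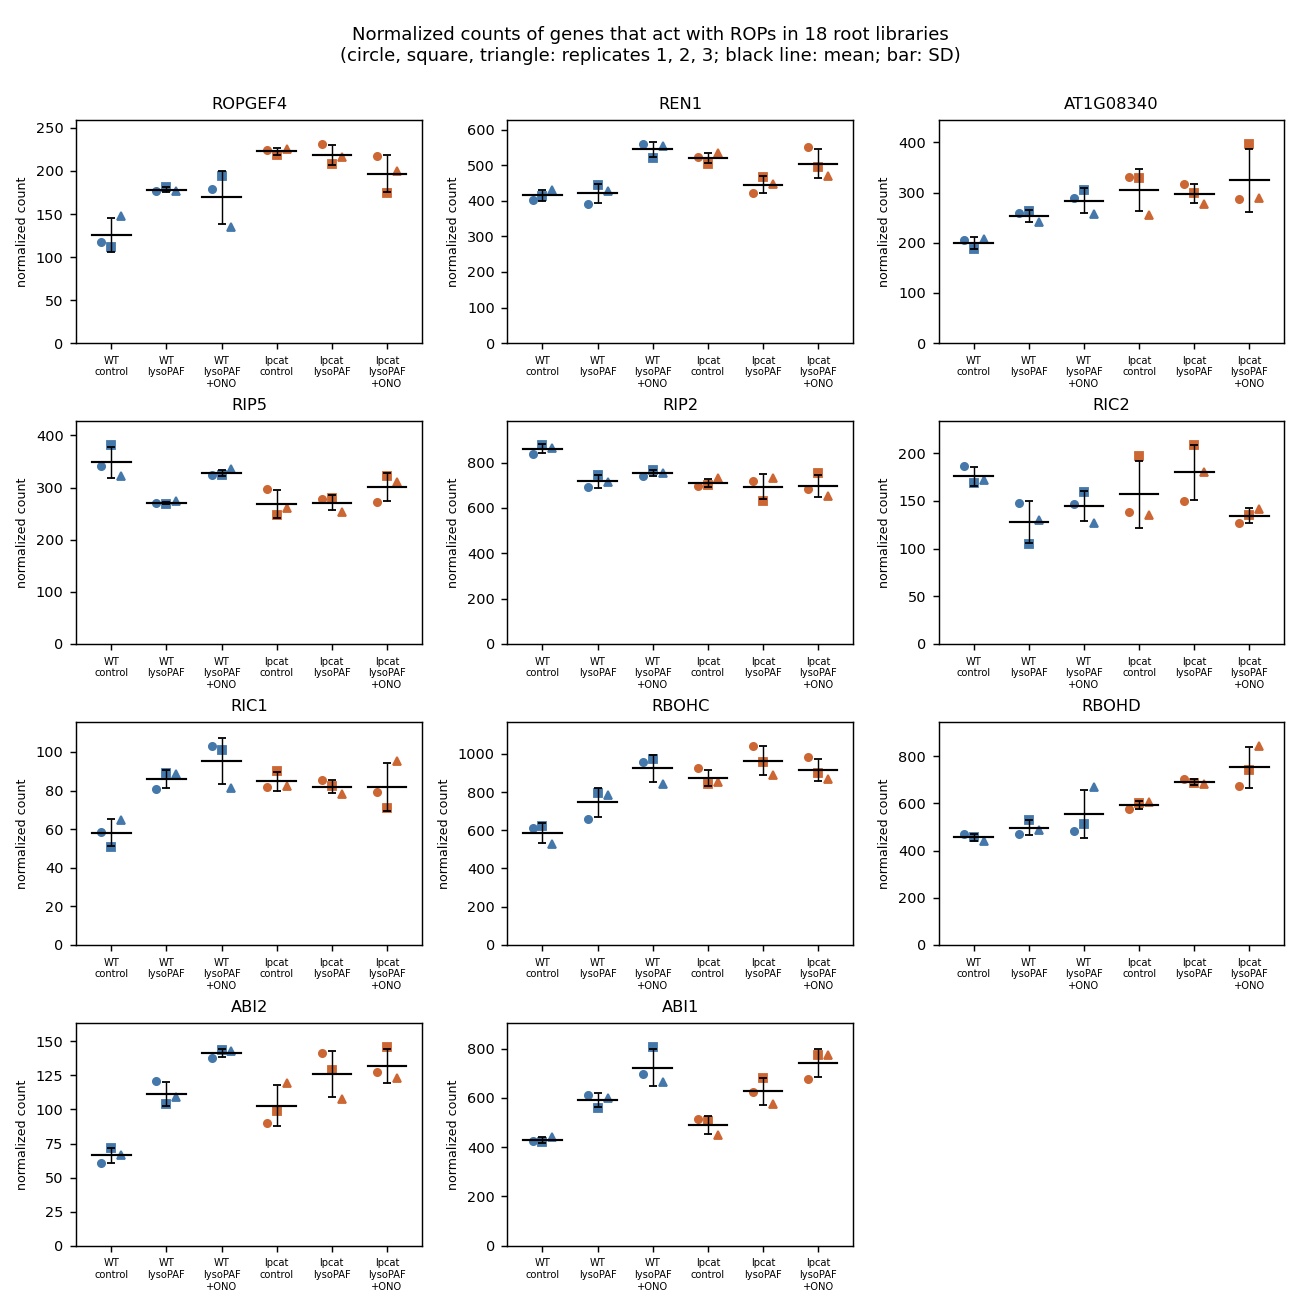
Normalized counts, in the 18 libraries, of 11 called genes that act with ROPs, at most 4 a list; points are libraries (blue WT, orange *lpcat*), black lines means and bars SD of 3 libraries, and each vertical axis starts at 0. ROPGEF4 (126), RBOHC (587) and ABI2 (66.6) have their lowest mean in the WT on control medium, and RIP5 (349) and RIP2 (861) have their highest there.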

How the data were processed

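Roots of WT and *lpcat* seedlings on 3 media were sequenced in 18 libraries. Per the labels and the study's methods, the authors made TruSeq RNA v2 libraries, aligned reads to TAIR10 and counted them per gene. The submitters' processing notes name STAR 2.4.0j, StringTie 1.0.3, HTSeq 0.6.0 and DESeq2 1.12.4. The deposited signal is a normalized count, the read count divided by the size factor of its library. Steps between values (0.609 to 1.24) gave back whole reads for 100% of the 400470 values above 0 (within 0.001 of a read). The table holds no coordinates; RefSeq's TAIR10.1, whose nuclear sequence is that of TAIR10, gave gene models, exon lengths and the printed sequences.

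Because the values were normalized, the study's count test was replaced by limma 3.58.1 (R 4.3.3) with a variance trend on log2(normalized count + 1), so fold changes understate those of low genes. All 18 libraries entered with 1 coefficient per group, for the 23760 genes with 5 or more reads in all. Standard errors and 95% intervals are limma's. Groups do not overlap where all libraries of one exceed all of the other. Alternatives were edgeR 4.0.16 (quasi-likelihood test, TMM) and DESeq2 1.42.0 (unshrunken) on recovered reads, no filter, filterByExpr, pseudocounts of 0.5 and 5, the compared groups alone, a replicate block and leaving out libraries. Replicates differed beyond counting error in every group (chi-square of 1.45 to 29.5 per gene), so none was merged.

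The members and the lists of genes were chosen with earlier results of these data known. Named genes are all members, LPCAT1 and LPCAT2, up to 4 called genes per list with the smallest adjusted p, and the 3 genes most like each of the 2 members with the smallest F-test p.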

Additional observations from a re-analysis of the deposited data

How the results depend on the processing

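Results were recomputed with edgeR, DESeq2, other filters and pseudocounts, the compared groups alone, a replicate block, and without 1 library at a time. The count of ROPs called stayed at 0 or 1. It went from 0 to 1 with DESeq2 for lysoPAF against control in the WT (ROP2) and for ONO in *lpcat* (ROP4), with the compared groups alone for *lpcat* against the WT on lysoPAF (ROP9), and without *lpcat* control replicate 2 for *lpcat* against the WT with ONO (ROP7), lysoPAF in the WT (ROP2), lysoPAF in *lpcat* (ROP9) and ONO in *lpcat* (ROP4). For ONO in the WT it ranged from 0 to 1 when 1 library was left out. Of 1440 alternative values of members, 57 had another sign, all of differences that were not called (-0.14 to 0.24), 55 of them without 1 library and 2 (ROP7 on control medium) with another tool. Of the named genes, the compared groups alone lost 18 calls, edgeR 2, no filter 3 and a pseudocount of 5 lost 3. The 18 include every call of *lpcat* against the WT on control medium, LPCAT1 among them (limma adjusted p = 0.0883). In that fit 2 genes passed as higher and 1 as lower. The cause was not tested. Whether replicate numbers pair the libraries was not settled. Of 45 pairs with the same number, 10 deviated together (r over 0.1, with all r from -0.15 to 0.21). Of 18 libraries, 10 correlated best with their own number. A replicate block raised the number of genes called in every comparison. For lysoPAF in *lpcat* it went from 461 higher and 374 lower to 583 and 494. With the replicate block ROP2 kept its call for ONO in the WT (limma adjusted p = 0.0422), 1 member was called there and 0 elsewhere, and RIC2 and RIC1 lost theirs (0.0511 and 0.0544). Depth limits ROP7, ROP8 and ROP9, whose counting error alone is 0.20 to 0.26 on the log2 scale.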

Other observations

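The genes whose profiles over the 18 libraries were most like that of ROP2, among 18431 genes with a mean of at least 10 normalized counts, were AT5G40660 (Pearson r = 0.889), AT1G48230 (0.877) and AT4G35200 (0.836). For ROP9 they were AT3G15650 (0.853), EHB1 (0.830) and AT5G42150 (0.800). The libraries share groups and depth, and these are the highest of many values, so they describe likeness only. Among the ROPs themselves, r over the 45 pairs ran from -0.23 to 0.67 with a median of 0.13, and 1 pair, ROP4 and ROP8, was above 0.5. Counting error lowers such values. Its SD on the log2 scale was 0.12 for ROP5, beside a residual SD of 0.12, and 0.10 for ROP3, beside 0.13. A low r therefore does not show that 2 profiles differ. The closest copies by sequence had r = 0.14 (ROP3 and ROP5), -0.09 (ROP2 and ROP4) and 0.28 (ROP10 and ROP11).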
